A study of Mus musculus with 2 samples.

Results

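Cytochrome P450 families 1 and 2 were measured by RNA sequencing in livers of mice fed a high-fat diet (HFD) that received an adeno-associated virus (AAV) encoding GFP or the long non-coding RNA *Wee1-AS*. Members were the rows of the deposited table whose gene symbol begins with Cyp1 or Cyp2, a subfamily letter and a number. They were 57 of the 45777 genes in the table and 118 of its 129299 transcripts. The mice were C57BL/6 (C57BL/6 N in the methods of the study), were 7 weeks old when the diet began, and ate it for 18 weeks. At diet week 13, and so 5 weeks before the end, they received AAV-GFP or AAV-*Wee1-AS* by the retro-orbital route, so that both groups carried the same diet and an AAV. The *Wee1-AS* vector was of serotype AAV9 with a CMV promoter, which is not restricted to hepatocytes. The serotype and promoter of the GFP vector were not given in the sources used here. The sex of these mice was not given in the sources used here, and nothing said that animals were pooled. Each group was represented by 1 library of poly-A RNA, so that no spread within a group exists and no P value is given for any difference. *Wee1-AS* itself was not analysed here.

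P450 enzymes are heme proteins of the endoplasmic reticulum that insert an oxygen atom into lipophilic substrates, with electrons from cytochrome P450 reductase (*Por*) and, for part of the reactions, cytochrome b5. Family 1 is known for polycyclic aromatic substrates and for induction through the aryl hydrocarbon receptor. Family 2 is the largest P450 family of the mouse. It oxidizes drugs, steroids, bile acids and polyunsaturated fatty acids, and many of its liver members differ between the sexes or between the zones of the lobule. Many of its genes lie in tandem clusters of close paralogs.

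The libraries held 55466182 (AAV-GFP) and 48079335 (AAV-*Wee1-AS*) estimated counts. Each gene is given with its counts, that of AAV-GFP first, and with a log2 ratio, positive where AAV-*Wee1-AS* was higher, computed from counts scaled by edgeR's TMM method with a prior count of 2. Brackets hold an exact (Clopper-Pearson) 95% interval, which covers counting error only and takes each estimated count as an independent read. Of the 57 members, 45 had at least 10 counts in a library and were compared. The other 12 were *Cyp2d67-ps*, with 5 and 0 counts, and *Cyp2b19*, *Cyp2b23*, *Cyp2c53-ps*, *Cyp2c65*, *Cyp2c66*, *Cyp2j11*, *Cyp2j12*, *Cyp2j13*, *Cyp2j7*, *Cyp2t4* and *Cyp2w1*, which were at 0 in both.

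The total of families 1 and 2 was nearly the same in both libraries, while single members differed by up to 6.66-fold. The members summed to 1052461 counts with AAV-GFP and 932082 with AAV-*Wee1-AS*, which were 1.9% and 1.94% of the libraries, with a log2 ratio of 0.09 [0.08 to 0.09]. Among the 45 members compared, 9 were higher with AAV-*Wee1-AS* by more than 2-fold (20%, against 22.2% of all 15857 genes compared) and 4 were more than 2-fold lower (8.89%, against 8.71%). The shares in the family were thus close to those of all genes. The ratio was above 1 for 23 members and below 1 for 22, and the median log2 ratio was 0.09, against -0.02 over all genes. For 7 of the higher and 3 of the lower members the whole counting interval lay past 2-fold, which 16.0% and 3.72% of all genes did. *Cyp2j8* (0 and 10 counts) and *Cyp2s1* (27 and 7) reached 10 counts only in the library where they are high, so that their selection bears on their calls. *Cyp2j8* is 1 of the 9 higher and 1 of the 7 wholly past 2-fold, and *Cyp2s1* is 1 of the 4 lower. Of the 28 members with at least 1000 counts in a library, 4 were higher (*Cyp2c54*, *Cyp2c50*, *Cyp2c37* and *Cyp2j5*), 3 were lower (*Cyp2b13*, *Cyp2a22* and *Cyp2a4*) and 21 lay within 2-fold.

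**Figure D1:**
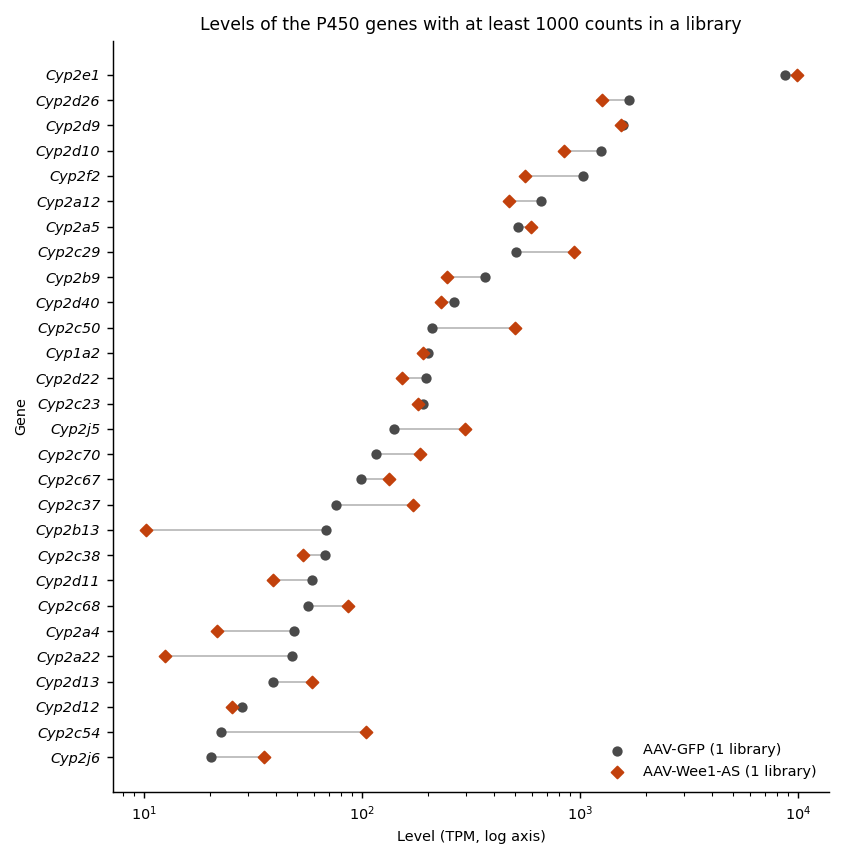
Levels in TPM (log axis) of the 28 members with at least 1000 counts in a library, with circles for the AAV-GFP library and diamonds for the AAV-Wee1-AS library. *Cyp2e1* is the most abundant in both at 8642 and 9843 TPM, and the widest gaps are those of *Cyp2b13* (68.1 and 10.1 TPM), *Cyp2c54* (22.6 and 104.4 TPM) and *Cyp2a22* (47.6 and 12.5 TPM).

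Ratios in these libraries ran with the base composition of the transcript, and this applies to all members below. Across all genes the log2 ratio fell with the GC content of the longest GENCODE transcript (Spearman coefficient -0.67 over 14995 genes), and across the 44 members with a GC value it did so as well (-0.56), genes of the same 2 libraries that are not independent replicates. When genes were ordered by GC content in 10 groups, the median log2 ratio was 1.43 in the group with 31.0 to 41.6% GC and -0.69 in the group with 57.7 to 72.8% GC. Members spanned 37.4 to 57% GC. The main ratios are therefore also given after trends with GC content and transcript length over all genes had been removed. After that step 3 members were more than 2-fold higher (*Cyp2c54*, *Cyp2d37-ps* and *Cyp2j8*, where 7.38% of all genes were) and 4 were more than 2-fold lower (*Cyp2b13*, *Cyp2a22*, *Cyp2c38* and *Cyp2c55*, where 8.54% of all genes were), and the median was -0.06. The call of *Cyp2j8* rests on its selection, as above. When the longest protein-coding transcript gave these measures instead, 4 were higher (the same 3 and *Cyp2j9*, against 6.64% of all genes) and the same 4 were lower (against 8.1%). Whether the trend is technical or biological was not tested.

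**Figure D2:**
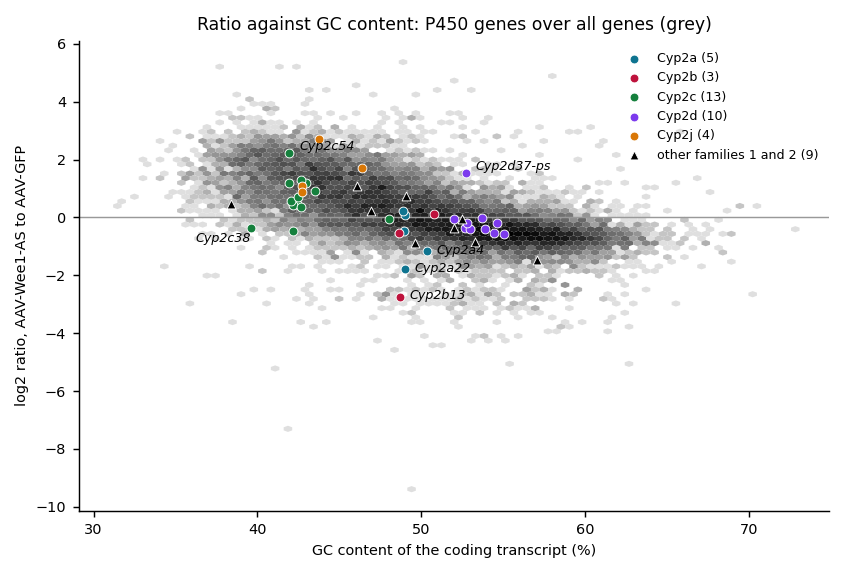
log2 ratio between the libraries (positive where AAV-Wee1-AS was higher) against the GC content of the longest protein-coding transcript for all genes compared (grey, darker where more genes lie, on a log scale) and for 44 P450 members (points, by subfamily, with the number of genes). *Cyp2c* and *Cyp2j* members lie at low GC content and mostly above 0 and *Cyp2d* members at high GC content and mostly below 0, as the grey cloud does, and *Cyp2b13*, *Cyp2a22* and *Cyp2d37-ps* lie in its sparse margins.

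The lowest ratio of the families was that of *Cyp2b13*, a female-predominant *Cyp2b* gene of the mouse liver. *Cyp2b13* (chr7:26061388-26096197, mm10) had 4219 counts with AAV-GFP and 526 with AAV-*Wee1-AS*, or 68.1 and 10.1 TPM, a log2 ratio of -2.74 [-2.87 to -2.61] and of -2.75 after the trends were removed. Its neighbor *Cyp2b9* (chr7:26173350-26210661), also female-predominant and 91.9% identical in transcript sequence, had 22631 and 12890 counts and a log2 ratio of -0.55 [-0.58 to -0.52]. *Cyp2b10*, the classical phenobarbital-inducible target of the constitutive androstane receptor, was near the bottom of the detected range, with 97 and 87 counts and a log2 ratio of 0.10 [-0.33 to 0.54]. The *Cyp2b* total was 26947 and 13503 counts, a log2 ratio of -0.73, and *Cyp2b13* and *Cyp2b9* held nearly all of it. In whole-liver RNA fewer cells of a type and less RNA per cell cannot be told apart.

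The relation of *Cyp2b13* to *Cyp2b9* does not depend on the scaling of the libraries. *Cyp2b13* held 15.7% of the counts of the pair with AAV-GFP and 3.92% with AAV-*Wee1-AS*, and its ratio to *Cyp2b9* was 0.186 [0.180 to 0.193] and 0.0408 [0.0373 to 0.0445], 4.57-fold lower with AAV-*Wee1-AS*. The transcripts have GC contents of 48.7 and 48.6%. Among the 100-base windows of the transcripts, the length of a read, 9.29% of those of *Cyp2b13* and 1.18% of those of *Cyp2b9* occur in another gene. Most of those of *Cyp2b13* (8.50% of its windows) are shared with the predicted gene *Gm45225*, and reads from them could have come from either gene. The transcript NM_007813 held 4075 of the *Cyp2b13* counts with AAV-GFP and 417 with AAV-*Wee1-AS*. The predicted transcripts held few counts and did not share a direction, with 87 and 0 on XM_006539509, 50 and 26 on XM_006539510 and 7 and 83 on XM_006539511.

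The promoters of this pair are shown because they are nearly the same sequence while the ratios of the genes were far apart. In RefSeq sequence of GRCm38.p6, 298 of the 300 bases from 250 before to 50 after the start of each gene are identical, the highest identity among the P450 promoters compared. The stretch from base -250 to base -108 is printed for *Cyp2b9* (chr7:26173159-26173301, plus strand) and *Cyp2b13* (chr7:26061245-26061387, plus strand), ending before the first transcript start in the table. Capitals mark the bases that differ, T48C and C104T (the *Cyp2b9* base first, positions counted from 1 at the 5′ end of the *Cyp2b9* sequence).
Cyp2b9: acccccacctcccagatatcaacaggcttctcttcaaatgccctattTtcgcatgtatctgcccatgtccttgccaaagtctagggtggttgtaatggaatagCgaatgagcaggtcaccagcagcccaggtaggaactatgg
Cyp2b13: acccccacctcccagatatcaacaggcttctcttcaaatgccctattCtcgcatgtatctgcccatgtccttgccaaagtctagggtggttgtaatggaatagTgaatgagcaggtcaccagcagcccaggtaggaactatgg
Both hold the letters AGGTCA, the half-site bound by many nuclear receptors, at -138 to -133. On either strand, these letters occur in 16.3% of all 32851 promoters of the same length. Neither sequence holds TTCNNNGAA, the paired site of STAT5, which 8.30% of promoters hold.

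In the *Cyp2a* cluster on the same chromosome, the minor gene of each pair of close paralogs was more than 2-fold lower with AAV-*Wee1-AS*, while its partner lay within 2-fold, before trends with GC content and length were removed. *Cyp2a22* (chr7:26931631-26939413) had 2693 and 646 counts, or 47.6 and 12.5 TPM, with a log2 ratio of -1.79 [-1.92 to -1.67]. Its paralog *Cyp2a12*, which hydroxylates steroids and bile acids, had 36083 and 21939 counts and a log2 ratio of -0.45 [-0.48 to -0.43]. After the trends were removed the values were -2.32 and -0.98 with the longest transcripts of the genes, and -1.81 and -0.48 with their longest protein-coding transcripts. *Cyp2a4* (chr7:26307192-26315088), a steroid hydroxylase that is higher in females, had 2757 and 1034 counts, or 48.8 and 21.6 TPM, with a log2 ratio of -1.15 [-1.26 to -1.05] and of -0.94 after the trends were removed, which is within 2-fold. *Cyp2a5* (chr7:26835339-26843264), the coumarin hydroxylase, had 29371 and 28482 counts and a log2 ratio of 0.22 [0.20 to 0.24]. The pseudogene *Cyp2a21-ps* had 714 and 632 counts and a log2 ratio of 0.09 [-0.07 to 0.24].

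Within a library, *Cyp2a4* held 8.58% of the counts of *Cyp2a4* and *Cyp2a5* with AAV-GFP and 3.50% with AAV-*Wee1-AS*, so that its ratio to *Cyp2a5* was 2.59-fold lower. *Cyp2a22* held 6.94% of the counts of *Cyp2a22* and *Cyp2a12* with AAV-GFP and 2.86% with AAV-*Wee1-AS*, a ratio 2.53-fold lower. The transcripts of *Cyp2a4* and *Cyp2a5* are 98.3% identical and those of *Cyp2a22* and *Cyp2a12* 96.5%. Of their 100-base windows, 11.2% for *Cyp2a4*, 14.4% for *Cyp2a5*, 6.36% for *Cyp2a22* and 6.83% for *Cyp2a12* occur in another gene. For *Cyp2a5*, 9.56% of the windows occur in *Cyp2a4*, and 10.1% of those of *Cyp2a21-ps* occur in *Cyp2a5*. Reads from shared windows could have been assigned to any gene that holds them.

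The *Cyp2a5* and *Cyp2a4* promoters are shown for the same reason as those of *Cyp2b9* and *Cyp2b13*. They are identical at 294 of 299 aligned bases of the 300-base windows, and both are printed from base -250 to base -1, for *Cyp2a5* at chr7:26835089-26835338 and for *Cyp2a4* at chr7:26306942-26307191 (plus strand, GRCm38.p6). Capitals mark T18C, C130T, A160G and T204G, with the *Cyp2a5* base first and positions counted from 1 at the 5′ end of the *Cyp2a5* sequence.
Cyp2a5: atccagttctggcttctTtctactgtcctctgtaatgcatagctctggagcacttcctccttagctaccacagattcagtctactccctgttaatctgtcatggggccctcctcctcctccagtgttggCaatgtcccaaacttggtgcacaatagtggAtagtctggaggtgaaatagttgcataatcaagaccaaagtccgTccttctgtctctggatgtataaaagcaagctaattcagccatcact
Cyp2a4: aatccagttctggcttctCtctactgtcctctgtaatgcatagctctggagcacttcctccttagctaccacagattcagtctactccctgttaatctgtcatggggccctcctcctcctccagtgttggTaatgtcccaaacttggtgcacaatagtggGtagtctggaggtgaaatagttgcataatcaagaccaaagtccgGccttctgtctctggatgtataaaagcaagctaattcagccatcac
Both hold GTTAAT, a half-site of HNF1, on the plus strand (at -161 to -156 in *Cyp2a5* and -160 to -155 in *Cyp2a4*), which 7.10% of all promoters hold on either strand. Both hold TATAAA, the letters of a TATA box, near the start (at -29 to -24 and -28 to -23), which 8.32% of all promoters hold on the plus strand and 17 of the 43 members with a promoter in the table did. The fifth difference, C269T, lies 19 bases after the start of *Cyp2a5*.

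**Figure D3:**
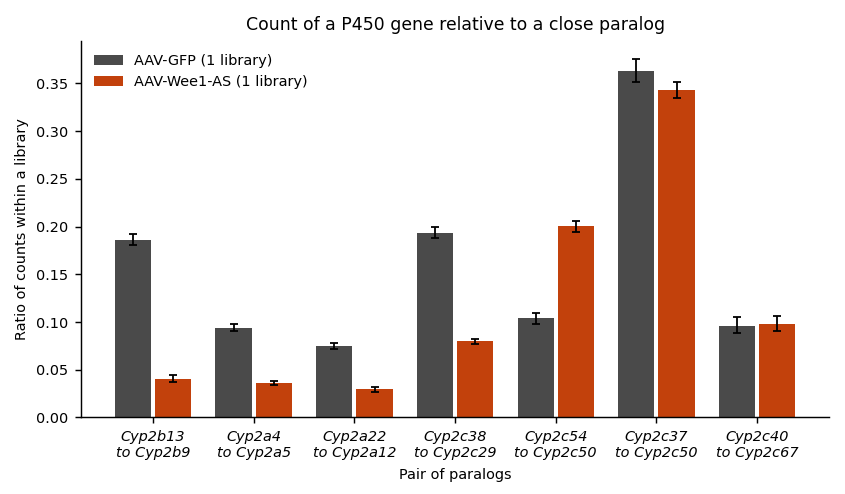
Ratio of the counts of a P450 gene to those of a close paralog within each library (bars), with exact 95% counting intervals (lines). The ratio is 4.57-fold lower with AAV-Wee1-AS for *Cyp2b13*, 2.59-fold for *Cyp2a4*, 2.53-fold for *Cyp2a22* and 2.42-fold for *Cyp2c38*, is 1.93-fold higher for *Cyp2c54*, and differs by less than 1.1-fold for *Cyp2c37* and *Cyp2c40*.

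The summed *Cyp2c* subfamily was higher with AAV-*Wee1-AS* before the GC and length trends were removed and not after. The *Cyp2c* genes, which include the main epoxygenases of arachidonic and linoleic acid in the liver, summed to 81780 and 118942 counts, a log2 ratio of 0.80 [0.79 to 0.82], and to -0.17 after the trends were removed. Of 16 members 13 were compared, of which 4 were more than 2-fold higher (22.2% of all genes were), none was more than 2-fold lower (8.71% of all genes) and 9 lay within 2-fold. After the trends were removed 1 was higher (*Cyp2c54*, against 7.38% of all genes) and 2 were lower (*Cyp2c38* and *Cyp2c55*, against 8.54%). The weighted GC content of their longest protein-coding transcripts was 43.4%, against 53.9% for *Cyp2d*. The *Cyp2c* share of all family 1 and 2 counts was 7.77% with AAV-GFP and 12.8% with AAV-*Wee1-AS*.

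*Cyp2c54* (chr19:40037939-40073845) was the *Cyp2c* member with the highest ratio. It had 1292 and 5082 counts, or 22.6 and 104.4 TPM, with a log2 ratio of 2.24 [2.15 to 2.33] and of 1.26 after the trends were removed. The epoxygenase genes *Cyp2c50*, with 12459 and 25390 counts (log2 ratio 1.29 [1.26 to 1.32]), and *Cyp2c37*, with 4527 and 8700 counts (log2 ratio 1.21 [1.15 to 1.26]), were more than 2-fold higher, but stood at 0.13 and 0.37 after the trends were removed. *Cyp2c29* was the most abundant *Cyp2c* gene, with 505.4 and 937.8 TPM, 29335 and 46050 counts and a log2 ratio of 0.91 [0.89 to 0.94], and stood at -0.24 after the trends were removed (0.08 with the protein-coding transcript). These 4 genes were all higher before removal, and *Cyp2c54* alone among them remained past 2-fold after it. The ratio of *Cyp2c54* to *Cyp2c50*, with 95% identical transcripts, was 1.93-fold higher with AAV-*Wee1-AS*, and the ratio of *Cyp2c37* to *Cyp2c50* was 1.06-fold lower.

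*Cyp2c38* had a ratio below 1 among neighbors mostly above 1. It had 5684 and 3682 counts and a log2 ratio of -0.36 [-0.42 to -0.30], and of -1.55 after the GC and length trends were removed. Its GC content is 39.6% and its transcript has 2869 bases. Its ratio to *Cyp2c29* was 2.42-fold lower with AAV-*Wee1-AS*. It overlaps the annotation of *Cyp2c39*, a gene with 86 and 166 counts and a log2 ratio of 1.19 [0.83 to 1.61], but no 100-base window is shared between their transcripts. *Cyp2c55*, an inducible gene better known from the intestine, had 142 and 85 counts and a log2 ratio of -0.47 [-0.88 to -0.08], and of -1.43 after the trends were removed.

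The near-identical *Cyp2c67*, *Cyp2c68*, *Cyp2c40* and *Cyp2c69* differed little in their proportions. *Cyp2c67* had 5575 and 6312 counts (log2 ratio 0.44 [0.39 to 0.50]), *Cyp2c68* 3267 and 4077 (0.58 [0.52 to 0.65]), *Cyp2c40* 537 and 619 (0.47 [0.30 to 0.64]) and *Cyp2c69* 199 and 212 (0.35 [0.07 to 0.64]). After the trends were removed all 4 turned to ratios below 1, at -0.51, -0.38, -0.44 and -0.54 in the same order. Of their 100-base windows, 19.8 to 44.1% occur in another gene, so that single values in this group are uncertain. The ratio of *Cyp2c40* to *Cyp2c67* was 0.0963 [0.0880 to 0.105] and 0.0981 [0.0902 to 0.107]. In *Cyp2c68* the predicted transcript XM_006527177 had 3 counts with AAV-GFP and 1507 with AAV-*Wee1-AS*, while NM_001039555 had 3264 and 2570. *Cyp2c70*, the enzyme that makes muricholic acids, had 6443 and 8719 counts and a log2 ratio of 0.70 [0.65 to 0.75], and stood at -0.21 after the trends were removed. *Cyp2c23*, an epoxygenase that is abundant in kidney, had 12234 and 9848 counts and a log2 ratio of -0.05 [-0.09 to -0.01].

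The *Cyp2d* genes, the mouse counterparts of the human drug-metabolizing subfamily, held 26.4% of family 1 and 2 counts with AAV-GFP and 20.6% with AAV-*Wee1-AS*. Their sum was 277371 and 191735 counts, a log2 ratio of -0.27 [-0.28 to -0.26], and 0.28 after the trends were removed. *Cyp2d26* had 90578 and 57500 counts (log2 ratio -0.39), *Cyp2d9* 85303 and 70582 (-0.01) and *Cyp2d10* 66987 and 38673 (-0.53). *Cyp2d9*, a testosterone hydroxylase that is higher in males, thus took a larger part of the subfamily with AAV-*Wee1-AS*, and the ratio of *Cyp2d10* to it was 1.43-fold lower. *Cyp2d22* (17948 and 11703 counts, log2 ratio -0.35), *Cyp2d40* (9545 and 7024, -0.18), *Cyp2d11* (3068 and 1734, -0.56) and *Cyp2d13* (2118 and 2712, 0.62) also lay within 2-fold. With the trends removed, *Cyp2d26* (0.18), *Cyp2d9* (0.55), *Cyp2d10* (0.08), *Cyp2d22* (0.04), *Cyp2d40* (0.20) and *Cyp2d11* (0.08) turned to ratios above 1. *Cyp2d12* had 1395 and 1128 counts (log2 ratio -0.04), but its counts were assigned to different transcripts in the libraries, with 0 and 921 on NM_201360 and 606 and 0 on XM_006521130.

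The only *Cyp2d* entry past 2-fold was *Cyp2d37-ps* (chr15:82688750-82690058), a pseudogene whose RNA is listed as non-coding with 671 bases. It had 218 and 534 counts, with a log2 ratio of 1.55 [1.33 to 1.79]. Its GC content of 52.7% is that of genes with ratios mostly below 1, and it stood at 2.03 after the trends were removed. The GC content and the value after removal rest on its GENCODE transcript, which has 1677 bases against the 671 of the RNA counted. No 100-base window of that longer transcript occurs in another gene. *Cyp2d34* and *Cyp2d41-ps* had 52 and 32 and 154 and 113 counts, and their intervals spanned 0.

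*Cyp2e1* and *Cyp2f2*, markers of opposite zones of the lobule, stood apart. *Cyp2e1* (chr7:140763819-140774990), the pericentral oxidase of ethanol, acetaminophen and other small molecules, had 501527 and 484102 counts, or 8642 and 9843 TPM, with a log2 ratio of 0.21 [0.21 to 0.22] and of -0.05 after the trends were removed. It held 47.7% of all family 1 and 2 counts with AAV-GFP and 51.9% with AAV-*Wee1-AS*, and without it the family summed to 550934 and 447980 counts, a log2 ratio of -0.03. *Cyp2f2* (chr7:27119955-27133660), a periportal gene of the hepatocyte that is also a major P450 of the lung, had 61493 and 28394 counts, or 1026 and 558.9 TPM, with a log2 ratio of -0.85 [-0.87 to -0.83]. Its ratio to *Cyp2e1* was 2.09-fold lower with AAV-*Wee1-AS*. The GC contents of the 2 genes are 53.3 and 46.9%, and after the trends were removed *Cyp2f2* stood at -0.32 and the difference between the genes was -0.27 on the log2 scale. The secretoglobin genes that mark lung club cells, *Scgb1a1*, *Scgb3a1* and *Scgb3a2*, were at 0 counts in both libraries. Of the surfactant genes on the same list, *Sftpd* had 40 and 0 counts, *Sftpa1* 14 and 18, *Sftpc* 3 and 0, and *Sftpb* 0 in both, and their part in the *Cyp2f2* value was not tested.

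**Figure D4:**
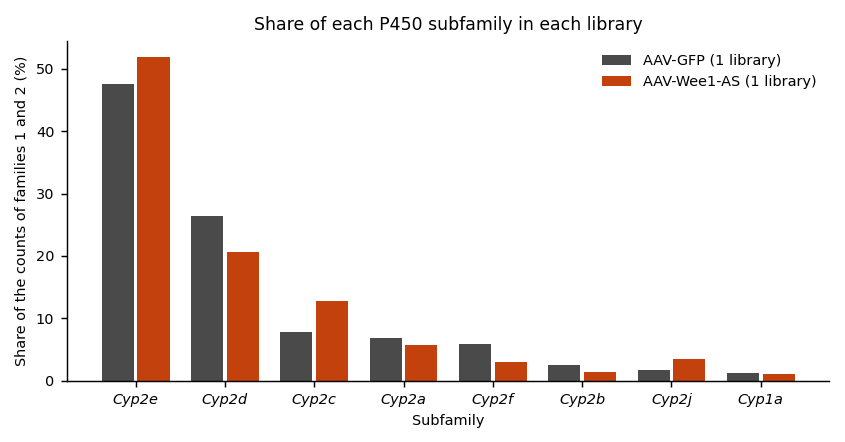
Share of the counts of families 1 and 2 (%) held by each of the 8 most abundant subfamilies in the AAV-GFP library (grey) and the AAV-Wee1-AS library (orange), 1 library each. *Cyp2e* holds 47.7 and 51.9% and *Cyp2c* 7.77 and 12.8%, while *Cyp2d* holds 26.4 and 20.6% and *Cyp2f* 5.84 and 3.05%.

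Other zonal genes did not follow a common direction. Of the 8 pericentral P450 genes of a list that also holds *Cyp2e1*, *Cyp2c54*, *Cyp2c50* and *Cyp2c37* were more than 2-fold higher (22.2% of all genes were), none was more than 2-fold lower (8.71% of all genes), and the median log2 ratio was 0.57. After the trends were removed *Cyp2c54* was higher (7.38% of all genes were), *Cyp2c38* was lower (8.54% of all genes) and the median was 0.17. Of 14 pericentral genes outside the families 3 were more than 2-fold higher and none lower, with a median of 0.23, and after removal 2 were higher and none lower, with a median of 0.21. Among them glutamine synthetase (*Glul*), the defining gene of the innermost pericentral hepatocytes, had 92143 and 72726 counts and a log2 ratio of -0.08. Of 14 periportal genes outside the families 2 were higher and none lower, with a median of -0.03, and after removal none was past 2-fold and the median was 0.36. The order of the medians of these 2 lists thus depended on the removal.

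The *Cyp2j* genes, epoxygenases of arachidonic acid, were higher with AAV-*Wee1-AS* before the trends were removed. Their sum was 18197 and 31838 counts, a log2 ratio of 1.07 [1.04 to 1.10], and 0.13 after removal. The weighted GC content of their longest protein-coding transcripts was 42.7%. *Cyp2j5* (chr4:96627432-96664171), the most abundant, had 15769 and 28094 counts (log2 ratio 1.10 [1.07 to 1.12]), and *Cyp2j6* 2387 and 3617 (0.86 [0.79 to 0.94]). *Cyp2j5* stood at 0.17 and *Cyp2j6* at -0.18 after removal. *Cyp2j9* had 41 and 117 counts and a log2 ratio of 1.72 [1.25 to 2.33], or 0.78 after removal. Its counts were assigned to different transcripts, with 41 and 22 on XM_006503444 and 0 and 95 on XM_030253853, so that its direction depends on the transcript. *Cyp2j8* had 0 and 10 counts. It was 4.00-fold higher against a floor of 3 counts per library, and the lower limit of its counting interval was 1.43 on the log2 scale. Among the remaining family 2 genes, *Cyp2r1*, a vitamin D hydroxylase, had 346 and 394 counts (0.45, but -0.71 after removal) and *Cyp2u1*, a fatty acid hydroxylase, 551 and 352 (-0.38). *Cyp2g1*, known from the olfactory mucosa, had 27 and 39 counts (0.75 [0.05 to 1.56]).

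Family 1 was within 2-fold where it was abundant. *Cyp1a2* (chr9:57676937-57683655), which oxidizes caffeine and aromatic amines, had 12490 and 9980 counts, or 200.4 and 189.0 TPM, with a log2 ratio of -0.06 [-0.10 to -0.02], and stood at 0.40 after the trends were removed. *Cyp1a1*, the gene most strongly induced through the aryl hydrocarbon receptor, had 70 and 31 counts and a log2 ratio of -0.87 [-1.57 to -0.28]. Its counts were assigned to different transcripts, with 70 and 0 on NM_001136059 and 0 and 31 on NM_009992, so that its direction depends on the transcript that is counted. *Cyp1b1*, a gene of non-parenchymal cells, had 17 and 32 counts and a log2 ratio of 1.08 [0.28 to 2.12]. Its direction depends on the transcript as well, with 17 and 8 counts on NM_009994 and 0 and 24 on NM_001364889. *Cyp2s1*, a family 2 gene that the same receptor can induce, had 27 and 7 counts and a log2 ratio of -1.46 [-3.13 to -0.45]. These 4 genes, the targets of the receptor on the list used here, gave 1 higher and 1 lower, both under 50 counts, against 22.2% higher and 8.71% lower among all genes, and their intervals reach into the range within 2-fold. With the trends removed none of the 4 was past 2-fold by its own value, against 7.38% higher and 8.54% lower among all genes. *Cyp2s1* then stood at -0.82, but the sum of *Cyp2s*, of which it is the only member, stood at -1.04. Its call after removal thus depends on how the value is formed.

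**Figure D5:**
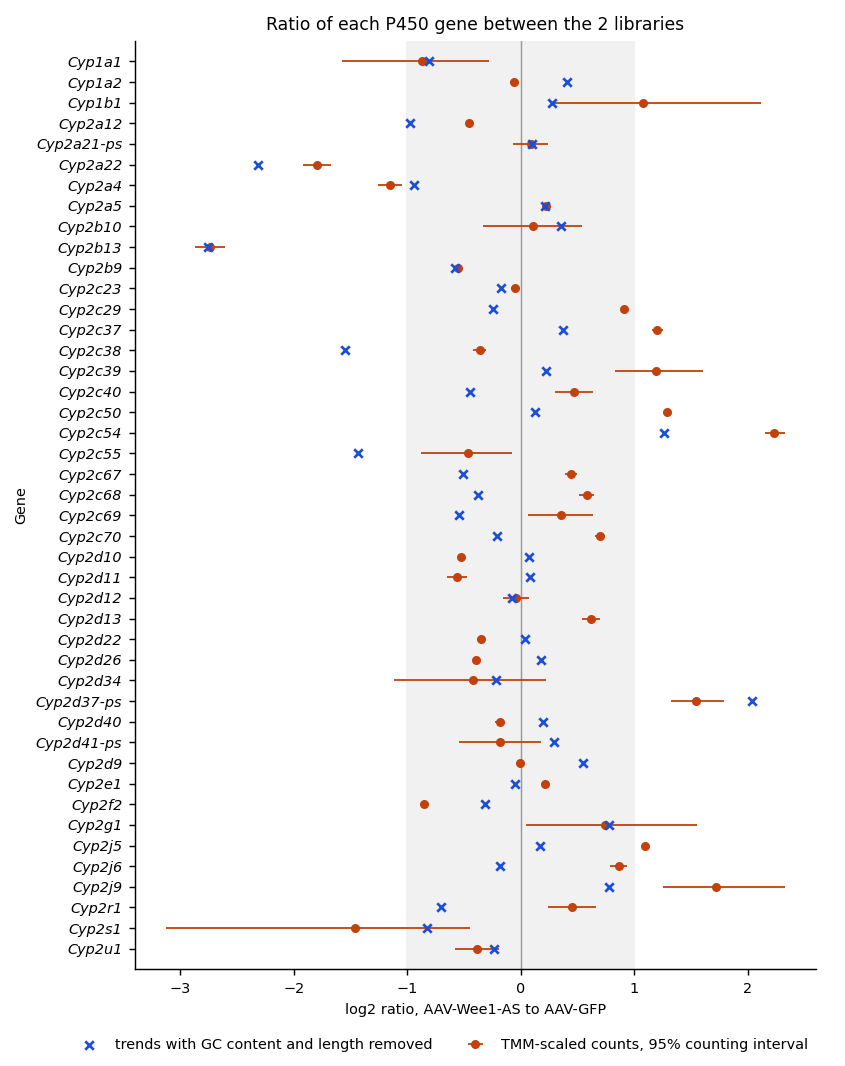
log2 ratio between the libraries (positive where AAV-Wee1-AS was higher) for 44 of the 45 members compared (*Cyp2j8*, at 0 counts with AAV-GFP, is left out), with circles and lines for TMM-scaled counts and their 95% counting interval, crosses for the ratio after trends with GC content and length were removed, and grey for the range within 2-fold. *Cyp2b13* at -2.74, *Cyp2a22* at -1.79, *Cyp2d37-ps* at 1.55 and *Cyp2c54* at 2.24 lie outside the grey range by both measures.

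The receptors and partners that act on these genes were compared by list, against 22.2% higher and 8.71% lower among all genes. The constitutive androstane receptor (*Nr1i3*) had 4645 and 4923 counts (log2 ratio 0.35) and the pregnane X receptor (*Nr1i2*) 3840 and 3501 (0.13). Of 17 genes of their pathway that were compared, none was higher and 4 were lower (*Gadd45b*, *Nr0b2*, *Rxrg* and *Alas1*), with a median of -0.30. After the trends were removed, when 7.38% of all genes were higher and 8.54% lower, *Por* (1.23) and *Dnajc7* (1.19) were higher, *Gadd45b* (-1.96) and *Cyp3a11* (-1.37) were lower, and the median was -0.37. Their 8 P450 targets on the list gave 3 higher (*Cyp2c54*, *Cyp2c50* and *Cyp2c37*), 1 lower (*Cyp2b13*) and 4 within 2-fold. After removal *Cyp2c54* was higher and *Cyp2b13* and *Cyp2c55* were lower. The targets thus lay on both sides, with a median of 0.51 before and -0.06 after removal. The aryl hydrocarbon receptor (*Ahr*) had 793 and 1208 counts (0.87) and its partner *Arnt* 879 and 1721 (1.23). Of 11 genes of that pathway 4 were higher (*Hsp90aa1*, *Tiparp*, *Arnt* and *Ptges3*) and 1, the glutathione transferase gene *Gsta1* at -2.86, was lower. After removal none was higher, with the 4 at 0.24 to 0.83, and *Gsta1* (-3.03) and *Ugt1a6a* (-1.12) were lower. Among 16 hepatocyte transcription factors *Onecut2*, *Nr5a2* and *Onecut1* were higher and none was lower, and *Hnf4a* had 28995 and 23096 counts (-0.06). After removal *Onecut1* (1.28) and *Ppara* (1.00) were past 2-fold, while *Onecut2* stood at 0.64 and *Nr5a2* at 0.54.

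For the supply of electrons and heme, few genes were past 2-fold, against 22.2% higher and 8.71% lower among all genes, and 7.38% and 8.54% after the trends were removed. *Por*, which reduces all microsomal P450 enzymes, had 24838 and 29254 counts and a log2 ratio of 0.50 [0.48 to 0.52], and *Cyb5a* 34139 and 33717 (0.25). Of 7 electron transfer genes *Cyb5b* alone was past 2-fold, at 1.06. With the trends removed *Por* alone was past 2-fold, at 1.23, and *Cyb5b* stood at 0.39. *Alas1*, the rate-limiting enzyme of heme synthesis in the liver, had 61181 and 23535 counts, a log2 ratio of -1.11 and of -0.72 after the trends were removed. Of 12 genes of heme synthesis and breakdown it alone was past 2-fold, 10 had a ratio below 1 and the median was -0.51. None of the 12 was past 2-fold after removal, and the median was -0.24.

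Genes known for a sex difference in the mouse liver were compared as a group, since *Cyp2b13*, *Cyp2a4* and *Cyp2b9* are among them. Of 9 female-biased P450 genes 1 was higher (*Cyp2c39*), 2 were lower (*Cyp2b13* and *Cyp2a4*) and 6 lay within 2-fold, against 22.2% higher and 8.71% lower among all genes. They summed to 36237 and 19255 counts, a log2 ratio of -0.65. The lower sum rested on *Cyp2b9*, *Cyp2b13*, *Cyp2c38* and *Cyp2a4*, which held most of the counts, while *Cyp2c40*, *Cyp2c69*, *Cyp2g1*, *Cyp2b10* and *Cyp2c39* had ratios above 1. After the trends were removed none of the 9 was higher (7.38% of all genes were) and 2, *Cyp2b13* and *Cyp2c38*, were lower (8.54% of all genes). *Cyp2a4* then stood at -0.94 and *Cyp2c39* at 0.22, and the ratios of *Cyp2c40* (-0.44) and *Cyp2c69* (-0.54) were below 1. The median of the list was 0.10 before and -0.54 after removal. The male-biased *Cyp2d9* and *Cyp2u1* were within 2-fold. Outside the families, 7 of 14 male-biased genes were higher and none lower, with *Hsd3b5* at 3.78, *Slco1a1* at 3.65 and *Mup7* at 3.09 and a median of 0.85. After removal 6 were higher and 1, *Mup20* at -1.47, was lower, with a median of 0.32. Of 10 female-biased genes 2 were higher and 3 lower before removal, and 1 was higher and 4 were lower after it. The 2 higher were *Fmo2* (1.38) and *Slc22a26* (2.15), and *Slc22a26* (1.13) remained past 2-fold after removal. The list, with its genes under 10 counts, summed to a log2 ratio of 0.81. The median of the 10 genes was -0.34 before and -0.78 after removal, so that sum and median differed in direction. The 3 lower were *Cyp3a44* (330 and 0 counts), *Cyp3a41b* (16 and 0) and *A1bg* (12 and 4). They reached 10 counts only with AAV-GFP, where they are high, so that their selection bears on their calls. *Cyp3a44* and *Cyp3a41b* are also among the 4 lower after removal. Of 8 regulators in the growth hormone pathway that sets these differences, *Jak2* (2.43) and *Ghr* (1.17) were higher, while *Stat5b* (3620 and 2209 counts, -0.45), *Bcl6* (250 and 171, -0.28) and *Cux2* (28 and 12, -0.86) were within 2-fold. After removal *Jak2* stood at 1.38 and *Ghr* at -0.17.

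Markers of sex and of other cells were compared in the same way, and their part in the P450 values was not tested. Their counts stand beside 22.2% higher and 8.71% lower among all genes, and 7.38% and 8.54% after the trends were removed. *Xist* was at 0 counts in both libraries, and 4 genes of the Y chromosome summed to 608 and 2618 counts, with log2 ratios of 1.76 to 2.84 and a median of 1.08 after the trends were removed, when 2 of the 4 were past 2-fold. Of 12 hepatocyte markers 3 were higher and none lower, with a median of 0.13, and none was past 2-fold after removal, with a median of 0.26. Of 10 macrophage markers 3 were higher and 2 lower (sum 33409 and 21244 counts), and after removal 1 was higher and 2 lower. Of 10 stellate cell markers 2 were higher and 3 lower (sum 37829 and 20915), and after removal none was higher and 3 were lower. Of 9 endothelial markers 1 was higher and none lower (sum 19687 and 16184), and none was past 2-fold after removal. Of 8 cholangiocyte markers none was higher and 1 lower (sum 3004 and 2273), and 2 were lower after removal. The 1 lower was *Cldn4* (18 and 0 counts). It reached 10 counts only with AAV-GFP, where it is high, so that its selection bears on its call. The 2 lower after removal were *Cldn4* (-2.45) and *Spp1* (-1.02). Of the kidney and intestine markers, *Umod*, *Slc34a1* and *Aqp2* were at 0 in both, while *Lrp2* had 40 and 21 counts and *Fabp2* 5088 and 4717.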

How the data were processed

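Liver poly-A RNA was sequenced as paired reads of 100 bases. The submitters' processing notes name Trimmomatic 0.38, HISAT2 2.1.0, SAMtools 1.9, StringTie 2.1.3b and the build mm10. The authors deposited 1 table of transcripts with estimated counts (whole numbers, not normalized), FPKM (scaled to transcript length and library) and TPM (scaled to an equal sum). Whether mates of a pair were counted separately was not given in the sources used here, and if so the counting intervals are too narrow. The labels used here describe 2 liver samples, 1 per group, while the design text speaks of 4.

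Counts were summed per symbol. TMM factors (edgeR 4.0.16, R 4.3.3) were 1.02 and 0.980. A gene was compared if either library held 10 counts or more, and past 2-fold means a ratio above 2 or below 0.5. With 1 library per group no test was made. Trends with GC content and length (GENCODE, GRCm38) were removed by lowess (span 0.3, 5 cycles, statsmodels 0.14.6). DESeq2 1.42.0 gave alternative size factors. The calculation was tested on simulated gene counts. These held counting error only, without differences between animals or reads shared between paralogs, so that the test does not bear on either. Promoters (RefSeq, GRCm38.p6) matched 43 of 57 members by symbol, and pairs were compared over at least 200 aligned bases. Named members had at least 1000 counts, or at least 100 counts and a ratio past 2-fold, or stood on a P450 list. *Cyp2j8*, *Cyp2d34*, *Cyp2d41-ps*, *Cyp2a21-ps*, *Cyp2r1* and marker genes at 0 counts were added after their values were seen. Members and lists were chosen with earlier results of these data known.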

Additional observations from a re-analysis of the deposited data

How the results depend on the processing

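All values rest on 1 library per group, so that differences between animals, litters or handling cannot be told apart from the effect of the vector. No paired analysis was possible because each group holds 1 library. Low counts limit *Cyp1a1*, *Cyp1b1*, *Cyp2j8*, *Cyp2j9*, *Cyp2s1* and *Cyp2g1*. The count of lower members stayed between 3 and 5 under 14 alternatives. The share of all genes that were lower moved more, from 1.94% with FPKM and a pseudocount of 1 to 12.7% with the most abundant transcript. The median log2 ratio of the members turned from 0.09 to -0.06 after the GC and length trends were removed. Members more than 2-fold higher numbered 9 in the comparison reported (22.2% of all genes were) and 5 with FPKM and a pseudocount of 1 (6.49%). They numbered 3 after the GC and length trends were removed (7.38% of all genes). With the trends of the coding transcript, an alternative added after seeing the data, they numbered 4 (6.64%). Subfamily sums past 2-fold numbered 3 in the comparison reported and 1 under upper quartile scaling, FPKM or TPM with a pseudocount of 1 and either trend removal. After the GC and length trends were removed this sum was that of *Cyp2s* (-1.04), whose only member *Cyp2s1* stood at -0.82 by its own value. The log2 ratio of the family sum was 0.031 with library totals, 0.10 with DESeq2 size factors, -0.030 with the upper quartile, 0.039 without the 20 most abundant genes, 0.026 in FPKM, 0.0501 in TPM with either pseudocount (1 or 0.1), -0.0035 and -0.026 after the trend removals, 0.14 with coding transcripts and 0.11 with the most abundant transcripts. Upper quartile scaling placed the median of all genes at -0.13. With the most abundant transcript alone, *Cyp1b1* and thus the *Cyp1b* sum reversed to -0.68, because its counts lay on different transcripts in the libraries. The same setting gave -5.04 for *Cyp1a1* and 5.75 for *Cyp2j9*. With coding transcripts only, *Cyp2d12* stood at 9.02, against -0.04 in the comparison reported. Of 12 named members past 2-fold, *Cyp2b13*, *Cyp2a22*, *Cyp2c54* and *Cyp2d37-ps* remained so under every alternative that gave a value.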
